A study of Homo sapiens
Mus musculus and Homo sapiens with 21 samples.

Results

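The 10 host genes described here all code for secreted matrix proteins: Sparc, Postn, Tnc, Thbs1, Thbs2, Fn1, Dcn, Lum, Bgn and Vcan. They were taken by gene symbol from a list drawn up with earlier results of these data known, and each symbol matched 1 of the 33043 mouse genes of the deposited table. The study placed H2030-BrM3 cells, a subline of the human lung adenocarcinoma line H2030 that homes to brain, in athymic nu/nu mice and sequenced total RNA of the tissue, so that mouse transcripts reported on the host and human transcripts on the cancer cells. SQ denotes subcutaneous tumours (4 libraries), grown from cells injected under the skin in 50% growth factor-reduced Matrigel. FBMet and HBMet denote forebrain and hindbrain carrying tumours (3 libraries each), which arose after injection into the heart. FB and HB denote forebrain and hindbrain free of tumours (4 libraries each), whose labels also list the cell line without saying whether those mice had been injected. Injected mice were 5 to 6 weeks old, athymic mice lack mature T cells, and tumours were cut out together with surrounding stroma before freezing. The labels do not say which libraries came from 1 animal, so p-values measure the spread between these libraries.

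Matricellular proteins sit in the extracellular matrix without being its main scaffold, and they modulate how cells attach, migrate and receive growth factors. SPARC, periostin, tenascin-C and the thrombospondins belong to this class, and fibronectin is the adhesive glycoprotein that integrins bind and that helps to organise new matrix. Decorin, lumican and biglycan are small leucine-rich proteoglycans that bind collagen fibrils and growth factors, and versican is a large hyaluronan-binding proteoglycan of provisional matrix. In most organs fibroblasts make much of this matrix, whereas the brain parenchyma holds little fibrillar collagen and its fibroblasts are found mainly in the meninges and around larger vessels. In adult brain SPARC is also made by astrocytes, microglia and endothelium, and versican by cells of the oligodendrocyte lineage.

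Mouse genes took 2446513 to 3982107 reads per library in SQ, 52358082 to 86139353 in tumour-bearing brain and 17747167 to 23034782 in tumour-free brain. Values are RPKM (reads scaled to transcript length and library size) rescaled to a common sum over the mouse genes of each library, so a value is a share of host RNA and not of the whole tumour. SQ replicate 3 stood apart from the other SQ libraries. Its 4 haemoglobin genes held 19.4% of summed RPKM, against 1.95 to 4.52% in the other 3, and its 4 skin keratin genes summed to 2.15, against 2317 to 3507 in the others. Neuron markers, a check of the labelled tissue, summed to 8.17 to 41.4 in SQ and 2585 to 3938 over the brain groups. In 3 libraries of cancer cells grown as a monolayer, which hold no mouse cells, few reads fell on the 10 genes: at the rate per human read seen there, at most 0.129% of any gene's reads in a tumour group would come from human RNA.

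Host tissue of subcutaneous tumours had far higher levels of every one of the 10 genes than host tissue of tumour-bearing brain. Fitted folds ran between 5.03 for Sparc and 344 for Postn, and no SQ library overlapped a brain library for any of them. In this comparison 80.7% of 16814 genes passed the test, with 33.5% of all tested higher and 47.1% lower in SQ. Of the 12240 genes that reached the filter level of 1 in at least 3 SQ and in at least 3 brain libraries, as all 10 did, 34.4% were higher and 42.6% lower. The median log2 difference was 5.35 over the 10 genes and -0.26 over all genes tested. In bulk tissue, fewer cells of a type and less RNA per cell cannot be told apart.

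**Figure D1:**
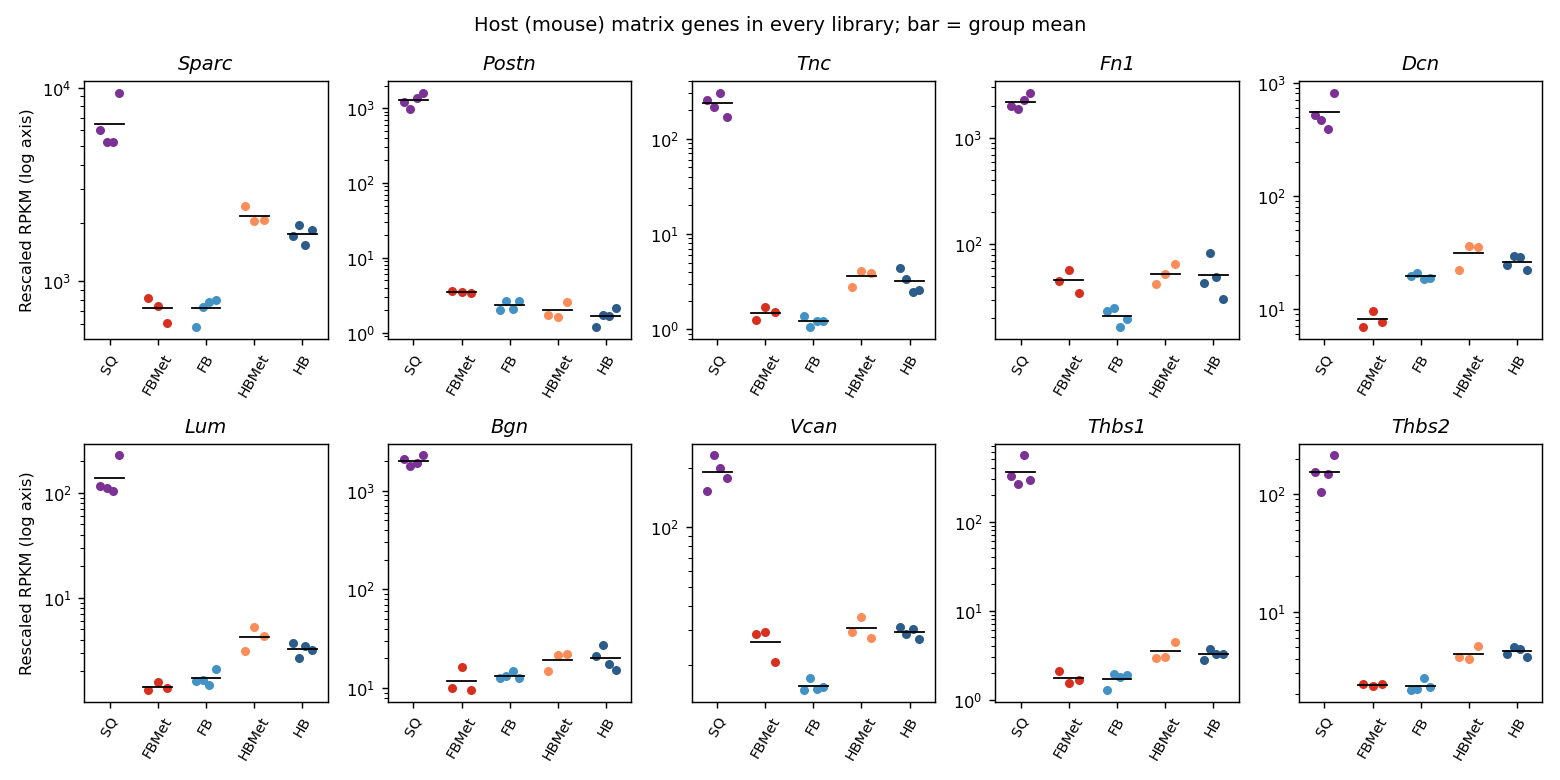
Rescaled RPKM (log axis, its range set per gene) of the 10 host genes in each of 18 libraries, with a bar at each group mean. SQ lies above every brain library for all 10 genes, Dcn lies lowest in FBMet, and Sparc, Tnc, Lum, Thbs1 and Thbs2 lie higher in the 2 hindbrain groups than in the 2 forebrain groups.

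Among the matricellular genes, Sparc (ENSMUSG00000018593.12), which codes for a collagen-binding glycoprotein, stood at 6010, 5250, 5243 and 9397 in SQ, against 820.2, 739 and 607 in FBMet and 2445, 2037 and 2058 in HBMet. Sparc had the smallest gap of the 10 and the highest brain levels of the 10 on this length-scaled measure. Its mean in SQ was 8.97 times that of FBMet and 2.97 times that of HBMet, and the log2 difference from the average of both was 2.33 (SE 0.17, limma adjusted p = 4.29e-07). Postn (ENSMUSG00000027750.16), the gene of periostin, a fibroblast product that links collagen to other matrix proteins, stood at 1190, 959, 1346 and 1604 in SQ, against 3.58, 3.51 and 3.41 in FBMet and 1.73, 1.64 and 2.6 in HBMet. This was the widest gap of the 10, with a log2 difference of 8.42 (SE 0.15, adjusted p = 3.96e-11). Because brain values are close to the pseudocount of 1, that fold understates the gap, and the mean in SQ was 364 times that in FBMet and 641 times that in HBMet.

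Tenascin-C, which loosens cell adhesion, is coded by Tnc (ENSMUSG00000028364.15), with 253, 216, 302 and 169 in SQ, against 1.26, 1.7 and 1.51 in FBMet and 2.78, 4.12 and 3.94 in HBMet. SQ exceeded tumour-bearing brain 68.6-fold for Tnc (log2 difference 6.10, SE 0.16, adjusted p = 2.42e-10). Thbs1 (ENSMUSG00000040152.8), whose product thrombospondin-1 inhibits angiogenesis and can activate latent TGF-beta, stood at 323, 266, 553 and 295 in SQ, against 2.11, 1.53 and 1.64 in FBMet and 2.93, 3.03 and 4.49 in HBMet. Replicate 3 of SQ, the library rich in haemoglobin, held the highest Thbs1 and Tnc values of the group. The 98.8-fold difference for Thbs1 (log2 6.63, SE 0.20, adjusted p = 5.52e-10) became 6.40 on the log2 scale without that library, and the 6.10 of Tnc became 5.97. The related Thbs2 (ENSMUSG00000023885.8) stood at 155, 104, 147 and 213 in SQ, against 2.44, 2.32 and 2.43 in FBMet and 4.14, 3.99 and 5.08 in HBMet. It was 35.3-fold higher in SQ (log2 5.14, SE 0.17, adjusted p = 1.01e-09).

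Fibronectin, coded by Fn1 (ENSMUSG00000026193.15), reached 2002, 1896, 2267 and 2674 in SQ, against 45.1, 57.6 and 34.8 in FBMet and 42.1, 52.1 and 64.6 in HBMet. The groups were 44.4-fold apart, with no overlap (log2 5.47, SE 0.17, adjusted p = 5.45e-10). Bgn (ENSMUSG00000031375.17), the gene of biglycan, a small proteoglycan that also engages Toll-like receptors, reached 2085, 1791, 1914 and 2272 in SQ, against 9.92, 16.2 and 9.54 in FBMet and 14.8, 21.4 and 22 in HBMet. Its 126-fold difference (log2 6.98, SE 0.16, adjusted p = 1.21e-10) was the widest of the 3 small proteoglycans. Decorin, which binds collagen and TGF-beta, is coded by Dcn (ENSMUSG00000019929.15), with 518, 464, 385 and 812 in SQ, against 6.85, 9.63 and 7.64 in FBMet and 22.2, 35.6 and 35 in HBMet. Dcn was 31.3-fold higher in SQ (log2 4.97, SE 0.21, adjusted p = 7.02e-09), and within the brain its HBMet values lay above all FBMet values.

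Lum (ENSMUSG00000036446.4), whose product lumican regulates collagen fibril assembly, stood at 115, 110.4, 103 and 227 in SQ, against 1.32, 1.57 and 1.39 in FBMet and 3.13, 5.22 and 4.33 in HBMet. Replicate 4 of SQ was far above the other 3, and the 37.4-fold difference (log2 5.22, SE 0.22, adjusted p = 6.08e-09) became 4.96 on the log2 scale without it. Versican, coded by Vcan (ENSMUSG00000021614.16), stood at 153, 232, 201 and 178 in SQ, against 28.6, 29.4 and 20.8 in FBMet and 29.4, 35.1 and 27.4 in HBMet. With a 6.52-fold difference (log2 2.70, SE 0.14, adjusted p = 3.51e-08), Vcan was with Sparc one of the 2 genes whose brain values came within 10-fold of SQ. All 10 calls held when each SQ library was left out in turn. SQ replicate 4 held the highest value of the group for Sparc, Postn, Fn1, Dcn, Lum, Bgn and Thbs2, but not for Tnc, Vcan or Thbs1.

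Fibroblast markers differed between the same groups. The marker counts below stand beside 34.4% higher and 42.6% lower in SQ among all genes at the filter level on both sides. The summed level of 13 fibroblast markers, Col1a1 and Col1a2 among them, was 37445 to 76140 in SQ, against 66.2 to 114 in FBMet and 103 to 184 in HBMet. Collagen genes made up most of the SQ sum: Col1a1, a chain of type I collagen, averaged 23226 ± 8519 in SQ (SD, n = 4), against 37.5 ± 13.1 in FBMet and 61 ± 17.2 in HBMet (n = 3 each), and Col3a1, type III collagen, averaged 20361 ± 7346 in SQ. Of the 13 markers, 4 reached the filter level through SQ alone and Slc6a13, a transporter gene of meningeal fibroblasts, through brain alone, while 7 of the other 8 were higher in SQ and none lower. The exceptions, named after their values were seen, were Foxc1, which was not called (2.51 ± 2.38 in SQ, 1.95 ± 0.678 in FBMet and 2.28 ± 0.236 in HBMet), and Slc6a13, which stood at 0.521 ± 1.04 in SQ, 9.81 ± 3.1 in FBMet and 14.6 ± 5.45 in HBMet. SQ replicate 4 had the highest fibroblast sum, 76140, as it had the highest value of 7 of the 10 genes. Pericyte and smooth muscle markers summed to 549 to 615 in SQ and 82.9 to 126 in tumour-bearing brain, and endothelial markers to 290.1 to 405 in SQ and 102 to 162 in tumour-bearing brain. Of 8 endothelial markers 6 were higher and 1 lower in SQ, namely Cldn5, a tight junction gene (11 ± 2.86 in SQ, 18.6 ± 6.74 in FBMet and 17.4 ± 3.13 in HBMet), and Flt1 was not called (45.1 ± 10.2 in SQ, 47.6 ± 12.5 in FBMet and 45.6 ± 5.35 in HBMet), both named after their values were seen. Microglial and macrophage markers summed to 1066 to 1357 in SQ, where Cd68 averaged 573 ± 39.2, and 148 to 366 in tumour-bearing brain. Of 7 such markers 5 were higher and 1 lower in SQ. P2ry12 stood at 11.5 ± 2.88 in SQ, 51.2 ± 7.05 in FBMet and 25.3 ± 6.2 in HBMet. Cx3cr1 stood at 49.8 ± 20.6 in SQ, 60.9 ± 11.6 in FBMet and 33.6 ± 5.05 in HBMet. These genes too were named after their values were seen. Skeletal muscle markers summed to 551 to 1053 in SQ and 1.91 to 4.92 in tumour-bearing brain, and fat markers to 32.4 to 239 in SQ and 0.0455 to 0.244 in tumour-bearing brain. Astrocyte markers went the other way, with 87.2 to 285 in SQ and 12212 to 21497 in tumour-bearing brain. The part of these cell types in the differences of the 10 genes was not tested.

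**Figure D2:**
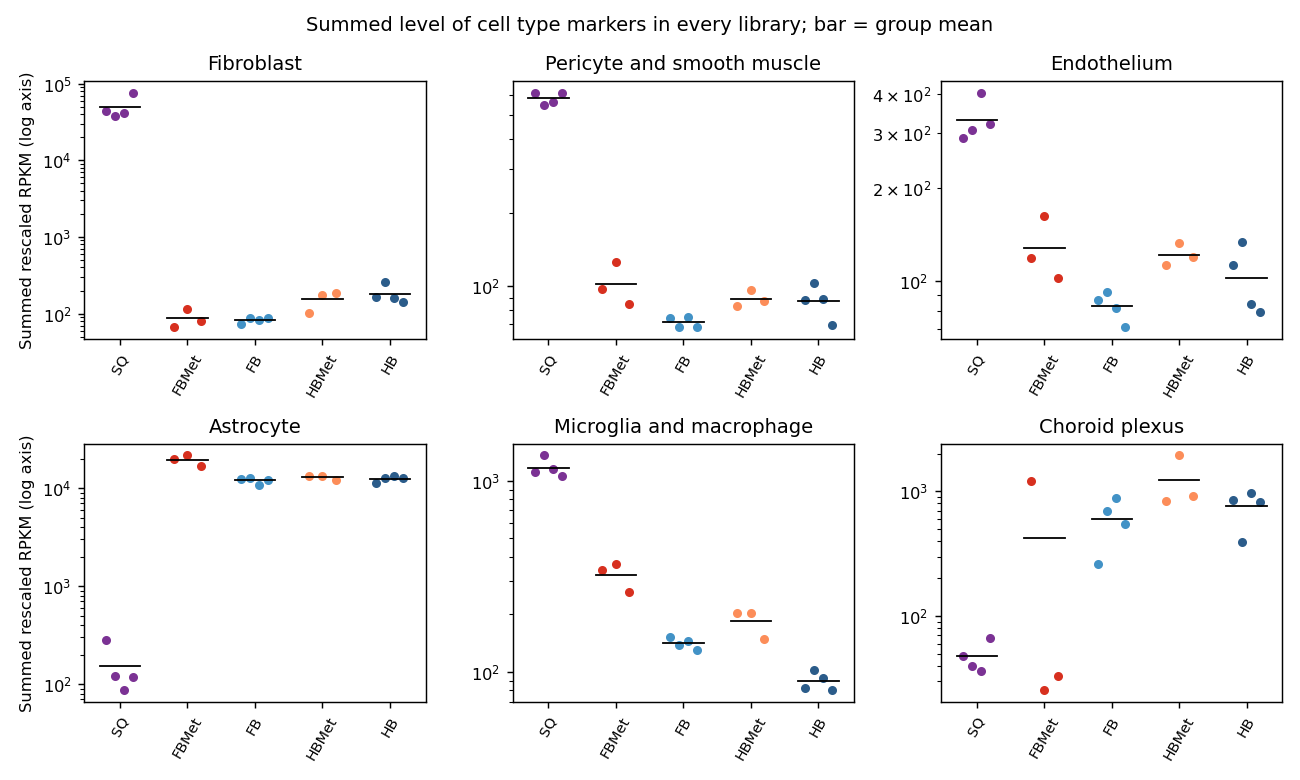
Summed rescaled RPKM (log axis, its range set per panel) of 6 lists of cell type markers in each of 18 libraries, with a bar at each group mean. Fibroblast sums are 37445 to 76140 in SQ and at most 255 in any brain library. Microglial sums are higher in FBMet than in FB and higher in HBMet than in HB, and choroid plexus sums range within FBMet between 25.5 and 1219.

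The next comparison addressed the host side of forebrain metastases. Tumour-bearing forebrain had more Fn1, Vcan and Postn and less Dcn than tumour-free forebrain, and the other 6 genes did not pass the test. Calls were made for 30.4% of 15777 genes in this comparison (14.4% higher and 16% lower), so 4 calls among 10 genes is near the share over all genes. The median log2 difference was 0.02 over the 10 genes and -0.03 over all genes tested.

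Fn1 stood at 45.1, 57.6 and 34.8 in FBMet, against 23.4, 25.3, 16.5 and 19.9 in FB. Every tumour-bearing library was above every tumour-free one, and the difference was 2.08-fold (log2 1.06, SE 0.27, adjusted p = 0.0119). Vcan stood at 28.6, 29.4 and 20.8 in FBMet, against 14.9, 17.2, 15 and 15.5 in FB. It rose 1.62-fold without overlap (log2 0.70, SE 0.11, adjusted p = 0.000671). Postn stood at 3.58, 3.51 and 3.41 in FBMet, against 2.02, 2.65, 2.08 and 2.64 in FB, values that rest on 392 to 484 reads per library in FBMet and 74 to 108 in FB. The 3 FBMet libraries were close to each other and above all of FB, with a 1.35-fold difference (log2 0.43, SE 0.14, adjusted p = 0.0289). That call is the least stable of the 4: it was lost without any 1 of the 3 FBMet libraries or without FB replicate 1 or 3, where the adjusted p was 0.054 to 0.0897. The Fn1 call was lost without FBMet replicate 2, its highest library (log2 0.88, adjusted p = 0.072).

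Dcn moved the opposite way. Its values were 6.85, 9.63 and 7.64 in FBMet, against 19.4, 20.8, 18.4 and 18.7 in FB, and the highest FBMet library lay well below the lowest FB library. The difference was 2.26-fold lower in FBMet (log2 -1.18, SE 0.15, 95% interval -1.51 to -0.85, adjusted p = 0.000118). Lum and Bgn, the other small proteoglycan genes among the 10, did not fall with it beyond their error. Lum stood at 1.32, 1.57 and 1.39 in FBMet, against 1.62, 1.65, 1.48 and 2.11 in FB (log2 -0.16, SE 0.14, adjusted p = 0.409), and the groups overlapped. Bgn stood at 9.92, 16.2 and 9.54 in FBMet, against 12.5, 13.3, 14.9 and 12.6 in FB (log2 -0.19, SE 0.20, adjusted p = 0.515), with 1 FBMet library above all of FB and the other 2 below.

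For Sparc the group means were the same to 3 digits. FBMet held 820.2, 739 and 607 and FB held 576, 733, 781 and 797, a log2 difference of 0.00 with a 95% interval of -0.27 to 0.27. Tnc was 1.26 to 1.7 in FBMet and 1.05 to 1.39 in FB, with an interval of -0.16 to 0.49. Thbs1 was 1.53 to 2.11 in FBMet and 1.28 to 1.94 in FB, with an interval of -0.27 to 0.32. Thbs2 was 2.32 to 2.44 in FBMet and 2.16 to 2.75 in FB, with an interval of -0.20 to 0.23. For all 4 the groups overlapped, and none passed the test.

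**Figure D3:**
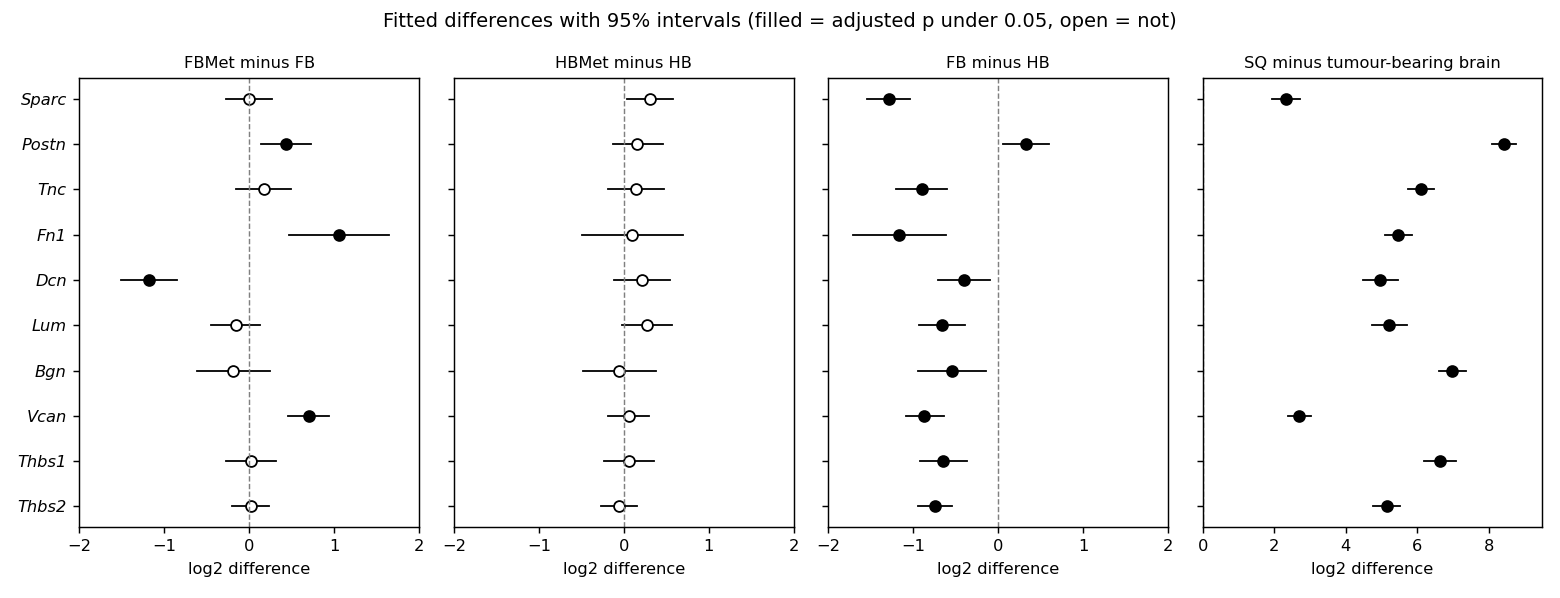
Fitted log2 differences (points, x axis, each panel headed by its comparison) with 95% intervals for the 10 host genes, filled where the limma adjusted p is under 0.05. In FBMet against FB, Dcn lies at -1.18 while Fn1, Vcan and Postn lie above 0; no point is filled in HBMet against HB; Postn alone lies above 0 in FB against HB; all 10 lie above 2 in SQ, whose panel has a wider axis.

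Cell type markers also differed between these 2 groups, in which 14.4% of all genes were higher and 16% lower in FBMet. Fibroblast sums overlapped, with 66.2, 114 and 80.9 in FBMet, against 73.9 to 88.7 in FB, and 2 of 10 fibroblast markers tested were higher in FBMet, namely the collagen genes Col5a1 and Col6a3, and none was called lower. That count of higher markers is near the share over all genes. Clec3b, the fibroblast gene of tetranectin, was 2.67 ± 0.845 in FBMet and 5.01 ± 1.44 in FB, with ranges apart but no call (log2 -0.71, 95% interval -1.32 to -0.09, adjusted p = 0.076). Slc6a13 was also not called (log2 -0.34, adjusted p = 0.359). These 4 genes were named after their values were seen. Pericyte and smooth muscle sums were 84.7 to 126 in FBMet and 68.1 to 75.2 in FB, and most of each was Rgs5 (79.3 ± 16.6 in FBMet, 53.4 ± 4.1 in FB). Of the 8 markers in that list 4 were higher. Kcnj8, Acta2, Tagln and Myh11 were not called (log2 0.14, -0.15, 0.16 and 0.09). Endothelial sums were 102 to 162 in FBMet and 70.6 to 92 in FB, with 5 of 8 markers higher. Microglial sums were 262 to 366 in FBMet and 130.2 to 153 in FB, with 7 of 7 markers higher. Astrocyte sums were 16718 to 21497 in FBMet and 10792 to 12712 in FB, and most of each sum was 1 gene, Slc1a2 (15308 ± 1792 in FBMet, 9013 ± 1016 in FB). Of 8 astrocyte markers 5 were higher in FBMet and none lower. The astrocyte filament gene Gfap was 4.86-fold higher (736 ± 181 in FBMet, 149 ± 28.2 in FB, limma adjusted p = 3.93e-05). Aldoc (log2 -0.01), S100b (0.10) and Gja1 (0.23), named after their values were seen, were not called. Neuron sums were 2892 to 3506 in FBMet and 3587 to 3938 in FB. FBMet replicate 2 had the highest fibroblast, pericyte, endothelial and microglial sums of its group, and also the highest Fn1, Vcan, Dcn, Bgn, Lum and Tnc. Sparc, Postn, Thbs1 and Thbs2 were instead highest in FBMet replicate 1, where the fibroblast sum was lowest. Dcn was lowest in that library. Choroid plexus markers were uneven in FBMet, at 1219, 25.5 and 32.9, against 263 to 883 in FB. Without replicate 1, the library high in choroid plexus, the log2 difference of Dcn was -1.08 (adjusted p = 0.00121), that of Vcan 0.63 (adjusted p = 0.00546) and that of Fn1 1.06 (adjusted p = 0.0392). The FBMet libraries kept in that fit lie below every FB library in choroid plexus markers, so it does not even out that tissue. The part of the marker differences in these results was not tested.

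In the hindbrain, none of the 10 genes passed limma's threshold between HBMet and HB. Over all genes 3.25% of 15777 passed, 2.92% higher and 0.33% lower, and at an unadjusted p under 0.05 the count among the 10 was 1, Sparc, where that rule took 14.9% of all genes. The count with voom on recovered reads was also 0.

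Sparc stood at 2445, 2037 and 2058 in HBMet, against 1705, 1952, 1541 and 1842 in HB. All HBMet libraries were above all HB libraries, by 1.24-fold (log2 0.31, SE 0.13), with an unadjusted p of 0.0284 and an adjusted p of 0.263 from limma. Lum stood at 3.13, 5.22 and 4.33 in HBMet, against 3.72, 2.69, 3.5 and 3.2 in HB (log2 0.28, SE 0.14, adjusted p = 0.365). Dcn, the gene that was lower in tumour-bearing forebrain, stood at 22.2, 35.6 and 35 in HBMet, against 24.2, 29.4, 28.8 and 21.8 in HB (log2 0.22, 95% interval -0.11 to 0.55, adjusted p = 0.545). For both genes the groups overlapped, and HBMet replicate 1 was the lowest of its group.

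Fn1 was spread most widely. It stood at 42.1, 52.1 and 64.6 in HBMet, against 43.3, 83.2, 49.6 and 30.6 in HB, and its 95% interval of -0.49 to 0.70 includes 0.47, the lower bound of its interval in forebrain. The highest HB library, replicate 2, also had the highest fibroblast sum of its group, 255, and the highest Bgn. Vcan stood at 29.4, 35.1 and 27.4 in HBMet, against 31.1, 28.6, 30.5 and 27.2 in HB, with an interval of -0.19 to 0.30. The remaining 5 genes had fitted log2 differences of -0.05 to 0.16 and overlapping groups. Postn was 1.64 to 2.6 in HBMet and 1.18 to 2.13 in HB, and Tnc was 2.78 to 4.12 in HBMet and 2.45 to 4.36 in HB. Bgn was 14.8 to 22 in HBMet and 15.3 to 27.5 in HB. Thbs1 was 2.93 to 4.49 in HBMet and 2.82 to 3.69 in HB, and Thbs2 was 3.99 to 5.08 in HBMet and 4.12 to 5.05 in HB. Hindbrain microglial sums were 148 to 204 in HBMet and 80.4 to 103 in HB, whereas fibroblast sums were 103 to 184 in HBMet and 142 to 255 in HB.

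Whether tumours changed a gene differently in the 2 regions was tested as a difference of differences, in which 0.456% of 15777 genes passed (0.254% higher and 0.203% lower in forebrain). Dcn was the 1 gene of the 10 to pass. Its tumour effect was lower in forebrain than in hindbrain by 1.40 on the log2 scale (fitted value -1.40, SE 0.22, 95% interval -1.86 to -0.93, adjusted p = 0.0178). Without HBMet replicate 2 or 3, the 2 libraries with the higher Dcn, the value was -1.28 (adjusted p = 0.06) or -1.29 (adjusted p = 0.0504), and with SQ included in the fit the adjusted p was 0.107. Vcan did not pass, at 0.65 (SE 0.16, adjusted p = 0.0817), although it passed without FBMet replicate 3, its lowest FBMet library (0.80, adjusted p = 0.017). For Fn1 the difference was 0.95 (SE 0.39, 95% interval 0.12 to 1.79, adjusted p = 0.203). The forebrain calls of Fn1, Vcan and Postn, set against none in hindbrain, are therefore not shown to be a difference between the regions.

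Tumour-free tissue gave the regional baseline. Of the 10 genes, 9 were lower in FB than in HB, and Postn was higher in FB. This was a comparison in which 52.8% of 15777 genes passed, 20.2% higher and 32.5% lower in FB; the median log2 difference was -0.70 over the 10 genes and -0.09 over all genes tested. With a scaling by medians of ratios the split over all genes was 4221 higher and 4037 lower, against 3194 higher and 5133 lower as reported, while the 10 genes gave 1 higher and 8 lower.

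Sparc stood at 576, 733, 781 and 797 in FB, against 1705, 1952, 1541 and 1842 in HB. The ranges were far apart and the level was 2.45-fold lower in FB (log2 -1.29, SE 0.12, adjusted p = 4.04e-07). Tnc stood at 1.39, 1.05, 1.21 and 1.21 in FB, against 4.36, 3.38, 2.45 and 2.61 in HB (1.87-fold lower, adjusted p = 7.99e-05), and 96 to 133 reads lie behind each FB value. Thbs1 stood at 1.28, 1.94, 1.78 and 1.89 in FB, against 2.82, 3.69, 3.26 and 3.22 in HB (1.56-fold lower, adjusted p = 0.000611). Every FB library was below every HB library for these genes, as it was for Thbs2, with 2.16, 2.22, 2.75 and 2.3 in FB, against 4.4, 5.05, 4.83 and 4.12 in HB (1.67-fold lower, adjusted p = 1.13e-05).

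Fn1 was 2.24-fold lower in FB (21.3 ± 3.88) than in HB (51.7 ± 22.4; SD, n = 4 each), with an adjusted p of 0.00164. Vcan was 1.82-fold lower in FB (15.6 ± 1.06) than in HB (29.3 ± 1.8), with an adjusted p of 7.01e-06. Lum was 1.58-fold lower in FB (1.71 ± 0.273) than in HB (3.28 ± 0.444), with an adjusted p of 0.000515. Those 7 genes kept their calls whichever library was left out. The other 3 calls were weaker: Dcn was 1.32-fold lower in FB (adjusted p = 0.0262), Bgn 1.46-fold lower, with 12.5 to 14.9 in FB and 21, 27.5, 17.4 and 15.3 in HB (adjusted p = 0.0237), and Postn 1.26-fold higher, with 2.02 to 2.65 in FB and 1.18, 1.72, 1.65 and 2.13 in HB (adjusted p = 0.0405). Leaving out 1 library ended the Dcn call for FB replicate 3 or 4 or HB replicate 2 or 3 (adjusted p up to 0.0717), and the Bgn call for FB replicate 1 or 4 or HB replicate 1 or 2 (up to 0.0761). The Postn call ended without FB replicate 2 or 4, HB replicate 1, 2 or 3, or FBMet replicate 1 or 2 (up to 0.131). Fibroblast sums were 73.9 to 88.7 in FB and 142 to 255 in HB. Of 10 fibroblast markers tested 7 were lower in FB, beside 32.5% over all genes, and 1 was higher, beside 20.2%. The latter was Fap, a protease gene of activated fibroblasts (1.16 to 1.71 in FB, 0.479 to 1.04 in HB, named after its values were seen). The part of fibroblasts in the regional differences was not tested.

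Set in order of group means, the 5 groups began with SQ for all 10 genes. Sparc then ran HBMet, HB, FBMet and FB, and each step but the last separated groups that did not overlap. For Tnc, Thbs1 and Lum the order continued with HBMet and HB, which overlapped, and then the forebrain groups, which lay apart from HB and overlapped each other. Dcn ran HBMet, HB, FB and FBMet, with overlap between HBMet and HB and none at the later steps. For Vcan and Fn1, FBMet overlapped with HB next above it and stood apart from FB below it. Postn differed from the rest in that FBMet came second and HB last. For Thbs2 the order was HB, HBMet, FBMet and FB, with a gap between HBMet and FBMet and overlap at the other steps. For Bgn each of the 4 brain groups overlapped with the next. These orders did not change with medians of ratios or with a scaling that left out mitochondrial genes.

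Reads of the human orthologs show which species the transcripts came from. Human reads made up 87.8 to 95.2% of the SQ libraries and 4.83 to 7.52% of the tumour-bearing brain libraries. Despite the small mouse part in SQ, Sparc, Dcn, Lum, Vcan and Thbs2 were transcribed almost wholly by the host: mouse reads were a mean of at least 98.8% of mouse plus human reads in each tumour group, and human DCN had 0 reads in all 10 tumour libraries. Human BGN was not analysed here.

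**Figure D4:**
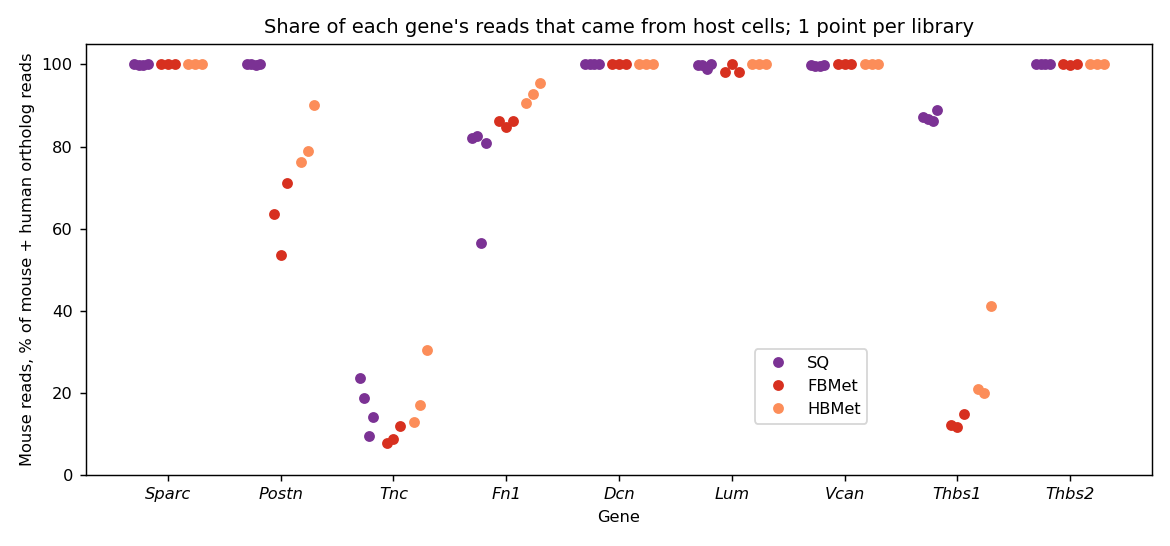
Mouse reads as a percentage of mouse plus human ortholog reads (y axis) for 9 of the 10 genes in SQ, FBMet and HBMet, 1 point per library. Sparc, Dcn, Lum, Vcan and Thbs2 lie near 100% in all 3 groups; Tnc lies at 30.3% or less throughout, and Thbs1 lies between 86.2 and 88.9% in SQ and between 11.7 and 41.1% in brain.

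Tnc and Thbs1 differed from that pattern. For Tnc the mouse share was 16.5 ± 5.99% in SQ (SD, n = 4), 9.45 ± 2.29% in FBMet and 20 ± 9.13% in HBMet (n = 3 each), so most tenascin-C transcripts in every tumour group were human. Thbs1 transcripts were mostly murine in SQ, with shares of 87.2, 86.7, 86.2 and 88.9%, and mostly human in brain, with 12.1, 11.7 and 14.8% in FBMet and 20.9, 20 and 41.1% in HBMet. Behind these stand 413 to 674 human THBS1 reads per library in SQ, 1634 to 2054 in FBMet and 973 to 2322 in HBMet. Postn was 99.9% murine in SQ, with 62.7 ± 8.75% in FBMet and 81.8 ± 7.4% in HBMet. Fn1 had a mouse share of 75.5 ± 12.7% in SQ, 85.8 ± 0.87% in FBMet and 93 ± 2.42% in HBMet, and its lowest library was SQ replicate 3 at 56.5%. Among HBMet libraries replicate 3 had the highest mouse share for Tnc, Thbs1, Fn1 and Postn and the lowest human share of the library, 5.49%. The error rate can also be taken per read of the human ortholog. This was done for Postn, Tnc, Fn1 and Thbs1, whose orthologs had at least 100 reads in the monolayer libraries. Among these genes the share of mouse reads expected from human RNA was at most 1.22%, for Postn in FBMet.

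Receptors for these proteins were followed as a list. Of 18 receptor genes tested, 11 were higher in FBMet than in FB, beside 14.4% higher over all genes. Tlr2, a receptor for biglycan, rose 2.46-fold (3.19 ± 0.658 against 0.691 ± 0.117), the hyaluronan receptor gene Cd44 1.99-fold (11.7 ± 1.32 against 5.37 ± 0.273), and Lrp1, which clears thrombospondins, and the integrin subunit gene Itgb5 1.84-fold each. In HBMet 4 of 18 were higher than in HB, beside 2.92% over all genes: Cd44 2.22-fold, Tlr2 1.93-fold, Itgb5 1.54-fold and Itga5, part of the fibronectin receptor, 1.4-fold. Of the 18 that reached the filter level on both sides, 16 were higher in SQ than in tumour-bearing brain, beside 34.4% of such genes in all. Among them were the syndecan gene Sdc1 (264 ± 149 in SQ, 5.45 ± 3.95 in tumour-bearing brain) and the gene of the SPARC-clearing receptor stabilin-1, Stab1 (545 ± 28.2 in SQ, 15.8 ± 3.46 in tumour-bearing brain). The thrombospondin receptor gene Cd36 reached that level in SQ alone, at 127 ± 31.5 against 0.545 ± 0.244. Tlr2 and Cd44 are also expressed by microglia, whose 7 markers tested were all higher in FBMet and 6 of 7 higher in HBMet, and the part of those cells was not tested.

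The TGF-beta pathway, which induces many matrix genes in fibroblasts, was also followed. Of 17 genes, 6 were higher and 1, Smad2 (1.16-fold, named after its value was seen), lower in FBMet than in FB, beside 14.4% higher and 16% lower over all genes, and 3 were higher in HBMet than in HB, beside 2.92%. The ligand gene Tgfb1 stood at 28.6 ± 5.58 in FBMet and 11.8 ± 1.29 in FB (2.3-fold), and at 23.7 ± 2.68 in HBMet and 10.9 ± 1.21 in HB (2.08-fold). Its receptor gene Tgfbr2 rose 1.98-fold in FBMet and 1.57-fold in HBMet. SQ exceeded tumour-bearing brain for 14 of the 17, with Tgfb1 at 376 ± 57.6 in SQ and 26.1 ± 4.74 in tumour-bearing brain, and 3 were lower in SQ, beside 34.4% higher and 42.6% lower among all genes that reached the filter level on both sides.

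Other matricellular genes gave 5 higher and 1 lower of 21 tested in FBMet against FB, near the 30.4% called over all genes. Thbs4 rose 1.8-fold, the fibulin gene Fbln2 1.6-fold and Spp1, the gene of osteopontin, 1.48-fold, while Nov, a member of the CCN family, was 1.89-fold lower (26.5 ± 4.12 in FBMet, 50.8 ± 5.84 in FB). Fbln2 was the 1 gene of this list whose tumour effect differed between regions (log2 0.98, SE 0.19, adjusted p = 0.0427), and it did not pass with voom, where the list's count was 0. Of the 16 that reached the filter level on both sides, 14 were higher and 2 lower in SQ than in tumour-bearing brain. Among all such genes 34.4% were higher and 42.6% lower. Tgfbi, a TGF-beta-induced adhesion protein gene, was 91.3-fold higher in SQ, whereas Tnr, the gene of the brain tenascin, was 141-fold lower (1.26 ± 1.02 in SQ, 308 ± 91.3 in tumour-bearing brain), as were the brain proteoglycan genes Spock2 (118-fold) and Spock1 (101-fold). Tnr and Spock1 reached the filter level in brain alone. In FB against HB, 5 of 21 were higher and 9 lower, beside 20.2% higher and 32.5% lower over all genes.

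Relatives of versican split from Vcan outside the brain. The 7 other lectican and link protein genes reached the filter level in brain alone, so that no count of them is given for SQ, with Bcan, the gene of brevican, at 0.882 ± 1.13 in SQ and 305 ± 57.7 in tumour-bearing brain, while Vcan was higher in SQ. In FBMet against FB, Ncan, the gene of neurocan, rose 1.88-fold, Hapln2 1.44-fold and Bcan 1.22-fold, and Hapln4 was 1.42-fold lower, which makes 4 of 7 called beside 30.4% over all genes. Relatives of decorin followed their group in SQ, where 5 of the 6 other small leucine-rich proteoglycan genes that reached the filter level on both sides were higher, Aspn, the gene of asporin, 65.2-fold and Podn 13.5-fold. Among all genes that reached it on both sides, 34.4% were higher and 42.6% lower. In FBMet against FB limma called none of the 6 tested lower and 1 higher, Aspn (1.28-fold); voom gave the same counts, and 2 of 6 had an unadjusted p under 0.05, beside 41.6% of all genes. Fmod, the gene of fibromodulin, was the other one besides Aspn, at 13.1 ± 3.91 in FBMet and 18.5 ± 1.49 in FB with overlap (log2 -0.50, 95% interval -0.97 to -0.03, limma adjusted p = 0.101), named after its value was seen.

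Of 11 genes of proteases that cut these proteins and reached the filter level on both sides, 9 were higher in SQ and 1 lower, beside 34.4% higher and 42.6% lower of such genes in all. Mmp9 was 111-fold higher, Mmp2 100.2-fold and Mmp14, a membrane-bound collagenase gene, 30.3-fold. In FBMet against FB, 4 of 11 were higher and 1 lower, beside 14.4% higher and 16% lower over all genes. The versican-cleaving protease genes Adamts1 and Adamts9 rose 1.59-fold and 1.41-fold, as did Bmp1, a processing enzyme of small proteoglycans, 1.41-fold, while Mmp9 was 1.53-fold lower (1.94 ± 0.156 in FBMet, 3.5 ± 0.491 in FB). In FB against HB 9 of 11 were lower, beside 32.5% over all genes. Between HBMet and HB limma called none of the tested genes of the matricellular, small proteoglycan, lectican and protease lists, of which 8 of 21, 2 of 6, 5 of 7 and 4 of 11 had an unadjusted p under 0.05, where 14.9% of all genes did. By voom the counts were 0 for 3 of these lists and 1, lower, among the lecticans and link proteins.

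The genes whose pattern over the 18 libraries was nearest to each of the 10 were sought among 13741 genes, by the root mean square difference of centred log2 values, so that a smaller number is a closer match. Some of the 10 were among the 3 nearest of another. Tnc and Thbs1 were each among the other's 3 nearest (0.34). In 1 direction only, Thbs2 was the nearest gene to Lum (0.26) and Bgn was among the 3 nearest to Thbs1 (0.34). Col12a1, a fibril-associated collagen gene, was nearest to Tnc (0.31), Pcolce to Dcn (0.37), Loxl2 to Thbs2 (0.23) and Ctsk to Bgn (0.29). Vcan had the closest match of all 10, Tln1 (0.13), the gene of the integrin-linking protein talin. Tspan4 was nearest to Sparc (0.24), Ppic to Fn1 (0.34) and Clec4n to Postn (0.47), the most distant first match. The gap between SQ and brain makes up much of each pattern, and all libraries enter for every gene.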

How the data were processed

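Bulk RNA was sequenced in 21 libraries, of which 18 in 5 groups are compared here. The authors deposited RPKM per gene in a mouse and a human table; reads were mapped to mm10 and hg38 (GRCm38 and GRCh38), per the submitters' processing notes. Per the labels' protocols, total RNA came from a column kit for lipid-rich samples and went into standard Illumina libraries. Which aligner and counter were used is not given in the sources used here; strand use in counting is not stated. Mouse genome positions and sequences are not used here.

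Each gene's RPKM values are whole multiples of 1 read's worth per library. From these steps whole reads were recovered, which give the depths and the voom alternative. A step was accepted only where every value of the gene lay within about 0.02 of a whole read. Such a step was found for all 32644 mouse genes above 0, of which 22583 were seen in at least 10 libraries. Genes seen in few libraries meet that rule easily. Each library's RPKM values were then scaled to the same total. limma's two-sided moderated test (trended prior, robust) was run on log2(value + 1), once over the 14 brain libraries and once over the 10 tumour libraries, without a block. A gene entered if 3 or more of these libraries reached 1. Benjamini-Hochberg adjustment covered all genes of a comparison, with adjusted p under 0.05 as the threshold for a call. Folds are 2 to the power of the fitted log2 difference and understate changes of low genes. The scripts were tested on simulated data.

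The labels give replicate numbers. Deviations of same-numbered FBMet and HBMet libraries from their group means correlated at 0.24, 0.38 and 0.44, so these numbers may mark pairs, an inference from the data. For same-numbered FB and HB libraries the correlations were -0.06 to 0.37. Libraries were not paired in the reported tests. In the alternative fits with a block, the number was a fixed term over all groups of the fit. As a random term it joined same-numbered libraries within tumour-bearing brain and within tumour-free brain. The 10 genes, the lists and the tests were chosen with earlier results of these data known. All 10 genes are named in every comparison, and from each gene list up to 4 of the largest calls with a mean of at least 1, not all of which are printed; the 3 nearest genes by pattern were sought among those with a group mean of at least 5. Markers were 11 lists of cell types, of which Itgam matched more than 1 entry and was left out. Other settings were further scalings, pseudocounts, filters, fits, voom, library weights, a replicate block, subtraction of reads expected from human RNA and leaving out libraries. R 4.3.3, limma 3.58.1, Python 3.11.15, NumPy 2.4.6 and pandas 2.3.3 were used.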

Additional observations from a re-analysis of the deposited data

Results flagged for a closer look

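Lum in SQ replicate 4 was 227, against 115 for the nearest of the other 3 SQ libraries, a gap of 0.904 of the group's range. It was the 1 case among 30 groups of 4 libraries examined, and chance gives about 1 in 20.

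The effect of tumours on Dcn differed between regions, at -1.40 on the log2 scale (adjusted p = 0.0178): FBMet was lower than FB, and HBMet was not lower than HB.

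In the 3 monolayer libraries, which the comparisons do not use, mouse Sparc had 12 reads, Postn 8, Fn1 8, Bgn 4 and Thbs1 5. In the 8 tumour-free brain libraries, human TNC had 6 reads.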

How the results depend on the processing

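Of 1360 values of the 10 genes under other settings, 1313 stayed on the same side of the threshold. Another 45 lost the call, 2 gained one and 0 reversed a call. Some uncalled values among the 1313 changed sign. Bgn in HBMet against HB was -0.05 on the log2 scale as reported and -0.17 to 0.12 under other settings. The Dcn and Vcan calls in FBMet against FB and all 10 calls in SQ held throughout. Leaving out 1 library gave 2 to 4 calls among the 10 in FBMet against FB, 0 to 0 in HBMet against HB, 7 to 10 in FB against HB, 10 to 10 in SQ against tumour-bearing brain and 0 to 2 in the difference between regions. That difference gave 2 calls with library weights (Dcn and Vcan) and 0 with all 18 libraries in 1 fit. FB against HB gave 5 calls with a filter at 5, under which 5 of the 10 genes were not tested, and 7 with voom, all lower. Postn in FBMet against FB was also lost with all 18 libraries (adjusted p = 0.0988), without a filter (0.0542) and with quantile normalization (0.0856). Fitted SQ folds of low genes depend on the scale: they were 163 for Postn, 46.2 for Thbs1, 31.6 for Tnc, 17.8 for Lum and 18.6 for Thbs2 with a pseudocount of 5, and 572, 167, 119, 66.3 and 55.3 in the same order with voom. Over all genes, calls in the difference between regions were 72 as reported, 174 with voom, 660 with library weights, 129 with quantile normalization, 30 without a filter and 12 with all 18 libraries; in FBMet against FB they were 4793 as reported and 1798 with all 18 libraries. In HBMet against HB the count was 512 as reported, 824 with library weights, 294 with a filter at 5 and 303 with all 18 libraries. Leaving out 1 library moved these counts to between 12 (without HBMet replicate 1) and 343 (without HB replicate 1) for the difference between regions, between 2353 (without FBMet replicate 2) and 4996 (without HB replicate 3) in FBMet against FB, and between 291 (without HBMet replicate 2) and 804 (without HB replicate 1) in HBMet against HB. Without replicate 1 of both FB and HB they were 631, 5094 and 853. Reads expected from human RNA were at most 0.129% of a gene's reads by library totals. By ortholog reads they were at most 1.22%, among Postn, Tnc, Fn1 and Thbs1.

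With a replicate block, as a fixed or a random term, the 10 genes gave 4 calls in FBMet against FB, 0 in HBMet against HB, 1 in the difference between regions, 10 in FB against HB and 10 in SQ, so the block changed no count among the 10. Counts over all genes did change. The difference between regions gave 90 calls with the fixed and 160 with the random term, beside 72 as reported. FBMet against FB gave 3753 and 4771, beside 4793. The correlation within blocks of the random term was 0.078 in the brain fit and 0.512 in the fit with SQ. The cause of the changes was not tested. Precision is limited by 3 or 4 libraries a group and, for Postn, Tnc, Lum, Thbs1 and Thbs2 in brain, by low levels.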
